A study of Mus musculus with 8 samples.

Results

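The 10 genes described here encode proteins of fibroblasts and other mesenchymal cells, and were chosen by symbol: *Pdgfra*, *Pdgfrb*, *Cav1*, *Dcn*, *Lum*, *Lox*, *Postn*, *Thbs1*, *Acta2* and *Tagln*. All 10 were found among the 36808 genes of the table, with 1 entry each. RNA-seq values were analysed for 8 libraries of mouse embryonic stem cell (ESC) lines that are wild type or mutant for core subunits of Polycomb Repressive Complex 2 (PRC2), 1 for each condition. At day 0 the libraries came from ESCs of E14 (wild type, 129/Ola background), CJ7 (a further wild-type line, 129/S background), *Suz12delta* (a truncation of SUZ12, C57/BL6 background) and *Eednull* (a point mutation in *Eed*, BALB/cR1 background). At day 5 of directed differentiation to spinal motor neurons (SMNs), which uses withdrawal of LIF, retinoic acid and a Sonic hedgehog agonist, these were E14, *Suz12GT* (a gene trap that fuses SUZ12 to β-galactosidase and leaves a hypomorph, 129/Ola background), *Suz12delta* and *Eednull* cells. Every mutant is a single cell line, and only *Suz12GT* shares its background with E14, so strain background and genotype cannot be told apart for *Suz12delta* and *Eednull*. All ESCs were grown on irradiated mouse embryonic fibroblast feeders (MEFs), which were depleted by letting them attach to a plate before the ESCs were collected or differentiated. By the sample labels and column headers, the CJ7 and *Eednull* ESC libraries were prepared and sequenced together. They were taken here as a batch apart from the other 6, which is an inference. On this reading the change of *Eednull* cells from day 0 to day 5 crosses library batches, and change and batch cannot be told apart.

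Mesenchymal cells are spindle-shaped cells that secrete and remodel extracellular matrix. They sense platelet-derived growth factors (PDGFs) through the receptor tyrosine kinases encoded by *Pdgfra* and *Pdgfrb*, deposit collagen that is organised by small proteoglycans and cross-linked by lysyl oxidases, and, when they become contractile, make smooth muscle actin and its partners. Fibroblasts such as MEFs express these genes, and motor neurons are not known for them. PRC2 places H3K27me3, a mark of repressed chromatin, at many genes of lineages that a cell has not taken.

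Values are FPKM, fragments per kilobase of transcript scaled to the mapped fragments of the library, as deposited. Ratios are log2 of FPKM plus 0.1, for genes that reached 0.1 FPKM on either side of a comparison, a scale that understates the change of low genes. With 1 library per condition no difference has a replicate check, so no test was made and no SD between replicates can be given. A ratio of at least 2-fold was counted as a difference, and the main count of the 10 genes in each comparison is given beside the share of all genes compared that passed the same limit. RNA from a bulk sample does not tell fewer cells of a type from less RNA per cell. All 10 genes passed the minimum in every comparison. How many reads each library had cannot be read from the table. FPKM sums ranged from 389165 in *Suz12delta* ESCs to 797748 in E14 ESCs. *Suz12* was at 6.21 FPKM in *Suz12delta* ESCs against 41.3 in E14, 53.1 in CJ7 and 35.7 in *Eednull* ESCs, and at day 5 it was at 16.2 in E14, 10.3 in *Suz12GT*, 11.6 in *Suz12delta* and 17.6 FPKM in *Eednull* cells. *Eed*, which carries a point mutation in *Eednull* cells, was between 11.1 and 50.9 FPKM in the 8 libraries. The 8 pluripotent cell markers summed to between 491 and 1139 FPKM in the ESC libraries and to between 1.23 and 17.4 FPKM at day 5. *Tubb3* and *Acta1*, which share 1 merged locus in the table, were listed at 0 in all 8 libraries, so sums over the motor neuron and muscle markers rest on the 7 others of each list. The motor neuron lineage markers summed to 139 FPKM in E14 and 104 FPKM in *Suz12GT* day 5 cells. Their sum was only 19.8 FPKM in *Suz12delta* and 18.2 FPKM in *Eednull* day 5 cells. The transcription factor gene *Lhx3* was at 25.8, 25.3, 2.52 and 0.356 FPKM and *Isl1* at 18.1, 22.8, 5.32 and 4.43 FPKM in this order. *Pax6*, at 21.9, 8.18, 7.24 and 9.35 FPKM, was about as high in *Suz12delta* and *Eednull* as in *Suz12GT* cells. The pluripotency genes *Dppa5a* and *Tdgf1* were between 123 and 407 FPKM in the ESC libraries and at 3.85 FPKM or less at day 5.

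The sequences upstream of 3 genes are shown, since *Pdgfra* was the only one of the 10 with its highest value at day 5, *Cav1* had the most negative change over differentiation in *Suz12delta* cells, and *Acta2* is a contractile gene whose promoter is known for CArG boxes, the sites bound by serum response factor. Each is the 250 bases before a RefSeq start, matched at 1 place in NCBI build 37. RefSeq upstream sequences were at hand for 4 of the 10 genes. For *Pdgfra* (chr5:75548026-75548275, plus strand) and *Cav1* (chr6:17256085-17256334, plus strand) capitals mark CG dinucleotides, and for *Acta2* (chr19:34329864-34330113, minus strand) they mark CArG-like boxes, in which 1 of the 6 middle letters is not A or T.
Pdgfra: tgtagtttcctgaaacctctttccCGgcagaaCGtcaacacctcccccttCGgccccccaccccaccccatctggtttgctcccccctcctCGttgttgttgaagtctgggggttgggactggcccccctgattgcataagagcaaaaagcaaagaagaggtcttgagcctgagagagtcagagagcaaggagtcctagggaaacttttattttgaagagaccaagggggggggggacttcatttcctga
Cav1: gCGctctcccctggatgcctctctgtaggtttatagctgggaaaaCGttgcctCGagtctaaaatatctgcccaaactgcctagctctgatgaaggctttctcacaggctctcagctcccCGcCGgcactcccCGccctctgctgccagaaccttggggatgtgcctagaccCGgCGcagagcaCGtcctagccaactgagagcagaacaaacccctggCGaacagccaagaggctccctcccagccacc
Acta2: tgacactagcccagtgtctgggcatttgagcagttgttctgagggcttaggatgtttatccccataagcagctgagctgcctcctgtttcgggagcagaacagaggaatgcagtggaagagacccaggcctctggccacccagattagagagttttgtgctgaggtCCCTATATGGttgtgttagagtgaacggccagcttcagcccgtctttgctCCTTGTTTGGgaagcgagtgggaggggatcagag
The *Pdgfra* window held 4 CG dinucleotides and the *Cav1* window 10, against a median of 6 over 32851 RefSeq windows of the same length, of which 62.2% held at least 4 and 37.8% at least 10. The *Acta2* window held 2 CArG-like boxes, beginning 84 and 34 bases before the start, and no CArG box with A or T at all 6 middle letters. The pattern of a CArG box, though not the letters of each box, reads the same way on both strands. A CArG-like box was held by 7.24% of all windows, 2 or more by 0.548% and a full CArG box by 1.47%. The sequences are those of the reference genome and not of the lines studied.

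The PDGF receptors differed from each other in their pattern over the 8 libraries. *Pdgfra* (ENSMUSG00000029231, chromosome 5, 75548316 to 75594229, plus strand, NCBI build 37), the receptor that binds PDGF-A and is also a marker of primitive endoderm, was at 0.665 FPKM in E14, 1.37 in CJ7, 8.78 in *Suz12delta* and 3.16 FPKM in *Eednull* ESCs. At day 5 *Pdgfra* was at 0.135 FPKM in E14, 2.23 in *Suz12GT*, 11.7 in *Suz12delta* and 10.98 FPKM in *Eednull* cells. It was the only one of the 10 genes whose highest value came from a day 5 library, and both *Suz12delta* and *Eednull* were above both wild-type lines at day 0 and above E14 at day 5. *Pdgfrb* (ENSMUSG00000024620, chromosome 18, 61204804 to 61244715, plus strand), the receptor of pericytes and vascular smooth muscle, was at 1.98 FPKM in E14, 2.23 in CJ7, 8.70 in *Suz12delta* and 3.65 FPKM in *Eednull* ESCs. At day 5 *Pdgfrb* was at 0.390 FPKM in E14, 0.276 in *Suz12GT*, 2.26 in *Suz12delta* and 3.18 FPKM in *Eednull* cells. It was the only gene of the 10 that was lower in *Suz12GT* than in E14 day 5 cells, by a log2 ratio of -0.38, which is under 2-fold.

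*Cav1* (ENSMUSG00000007655, chromosome 6, 17256335 to 17291452, plus strand) encodes caveolin 1, the main coat protein of caveolae, the small pits of the plasma membrane. It was at 16.2 FPKM in E14, 10.04 in CJ7, 149 in *Suz12delta* and 34.4 FPKM in *Eednull* ESCs. At day 5 *Cav1* was at 0.278 FPKM in E14, 0.803 in *Suz12GT*, 1.56 in *Suz12delta* and 1.79 FPKM in *Eednull* cells. All 4 ESC libraries were thus above all 4 day 5 libraries, with a 537-fold span between *Suz12delta* ESCs and E14 day 5 cells. An antisense gene, *Gm15581*, spans *Cav1*, and how strand was counted is not given in the sources used here, but *Gm15581* was listed at 0.235 FPKM or less in every library. The entry of *Cav1* is listed under a wider merged locus, 17147751 to 17335604, which is also given for another caveolin gene.

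The small leucine-rich proteoglycans decorin and lumican bind collagen fibrils and set their spacing, and their genes *Dcn* and *Lum* are neighbours, 47.4 kb apart. *Dcn* (ENSMUSG00000019929, chromosome 10, 96942245 to 96980777, plus strand) was at 0.374 FPKM in E14, 1.53 in CJ7, 5.28 in *Suz12delta* and 0.708 FPKM in *Eednull* ESCs. At day 5 *Dcn* was at 0.0899 FPKM in E14, 2.76 in *Suz12GT*, 3.65 in *Suz12delta* and 3.26 FPKM in *Eednull* cells. The 3 mutant values at day 5 lay close together, and *Suz12GT* covered 94.4% of the log2 distance from E14 to the lower of the other mutants, the largest share of the 10 genes. *Lum* (ENSMUSG00000036446, chromosome 10, 97028135 to 97035337, plus strand) was at 0.132 FPKM in E14, 0.767 in CJ7, 1.39 in *Suz12delta* and 0.136 FPKM in *Eednull* ESCs. *Lum* was listed at 0 in E14 day 5 cells and was at 0.153 FPKM in *Suz12GT*, 1.09 in *Suz12delta* and 1.17 FPKM in *Eednull* day 5 cells. It was the lowest of the 10 genes in every library. Neighbouring values in the order of libraries were closer together than E14 and CJ7 ESCs in 7 of 7 pairs for both *Lum* and *Dcn*. The E14 and CJ7 ESC libraries differ in batch as well as in line.

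*Lox* (ENSMUSG00000024529, chromosome 18, 52675723 to 52689521, minus strand) encodes lysyl oxidase, which starts the cross-linking of collagen and elastin. It was at 17.9 FPKM in E14, 12.4 in CJ7, 60.3 in *Suz12delta* and 58.1 FPKM in *Eednull* ESCs. At day 5 *Lox* was at 0.0795 FPKM in E14, 1.03 in *Suz12GT*, 6.54 in *Suz12delta* and 2.40 FPKM in *Eednull* cells. The mutant ESC libraries differed little for this gene, and its 758-fold span was the widest of the 10. *Postn* (ENSMUSG00000027750, chromosome 3, 54165031 to 54194961, plus strand), which encodes periostin, a matricellular protein of collagen-rich tissue, was at 2.64 FPKM in E14, 6.34 in CJ7, 18.1 in *Suz12delta* and 9.45 FPKM in *Eednull* ESCs. At day 5 *Postn* was at 0.0424 FPKM in E14, 0.600 in *Suz12GT*, 9.94 in *Suz12delta* and 5.65 FPKM in *Eednull* cells. Its day 5 values in *Suz12delta* and *Eednull* cells were above its E14 ESC value, but only that of *Suz12delta* cells was above its CJ7 value. *Thbs1* (ENSMUSG00000040152, chromosome 2, 117937612 to 117952869, plus strand), which encodes thrombospondin 1, a secreted protein that activates latent TGF-beta, was at 42.9 FPKM in E14, 21.5 in CJ7, 196 in *Suz12delta* and 77.7 FPKM in *Eednull* ESCs. At day 5 *Thbs1* was at 1.66 FPKM in E14, 6.05 in *Suz12GT*, 15.5 in *Suz12delta* and 11.03 FPKM in *Eednull* cells. As for *Cav1* and *Lox*, all 4 ESC libraries were above all 4 day 5 libraries.

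The contractile genes were the 2 highest of the 10 at day 5 in E14, *Suz12delta* and *Eednull* cells, and in *Suz12GT* cells *Thbs1* stood between them. *Acta2* (ENSMUSG00000035783, chromosome 19, 34315580 to 34329826, minus strand), which encodes smooth muscle alpha-actin, was at 35.1 FPKM in E14, 22.1 in CJ7, 142 in *Suz12delta* and 66.4 FPKM in *Eednull* ESCs. At day 5 *Acta2* was at 11.2 FPKM in E14, 13.8 in *Suz12GT*, 44.2 in *Suz12delta* and 28.0 FPKM in *Eednull* cells. It was the highest of the 10 genes in each day 5 library, and its 12.7-fold span was among the narrowest, beside 10.6-fold for *Lum* between its values above 0. *Tagln* (ENSMUSG00000032085, chromosome 9, 45737711 to 45744141, minus strand), which encodes transgelin, an actin-binding protein of smooth muscle, was at 26.0 FPKM in E14, 18.3 in CJ7, 63.1 in *Suz12delta* and 55.1 FPKM in *Eednull* ESCs. At day 5 *Tagln* was at 2.24 FPKM in E14, 4.40 in *Suz12GT*, 38.1 in *Suz12delta* and 17.9 FPKM in *Eednull* cells. The *Suz12delta* day 5 value lay above both wild-type ESC values for both genes. *Tagln* overlaps the gene *Pcsk7* on the other strand by 65 bases, and *Pcsk7* was between 2.76 and 9.14 FPKM in the 8 libraries. The entry of *Tagln* is also listed under a locus wider than the gene, 45646663 to 45744141.

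**Figure D1:**
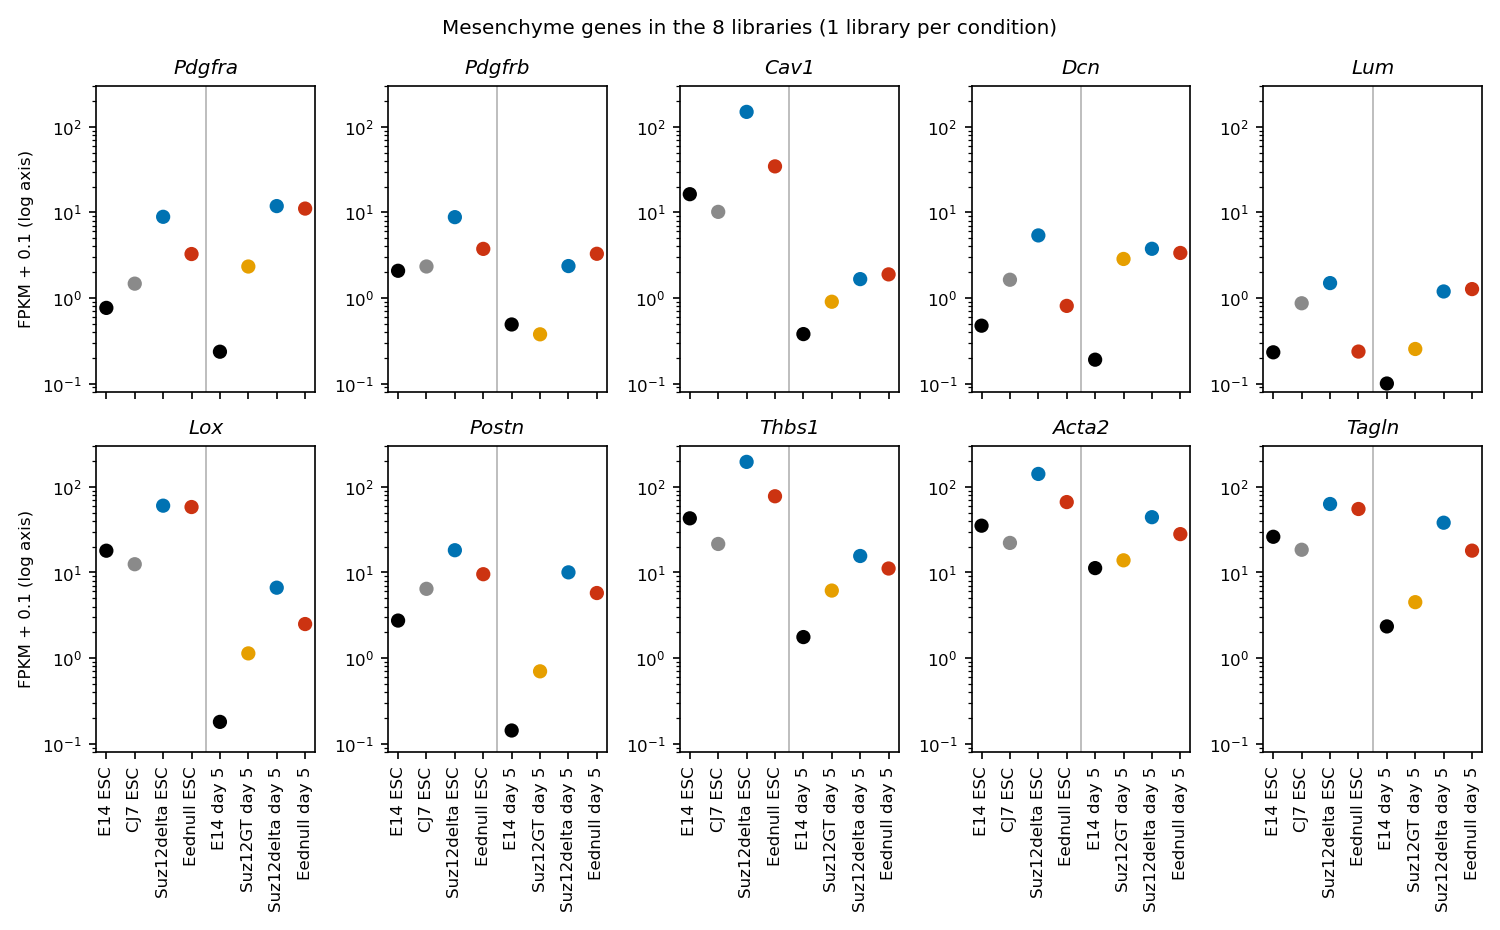
FPKM plus 0.1 on a log axis for each of the 10 genes, with 1 point per library (black E14, grey CJ7, blue Suz12delta, red Eednull, orange Suz12GT) and a vertical line between ESC and day 5 libraries. E14 day 5 cells were lowest for 9 of the 10 genes and Suz12delta ESCs highest for 9 of 10.

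Among all libraries, *Suz12delta* ESCs had the highest value of 9 of the 10 genes and E14 day 5 cells the lowest of 9. The make-up of the list also differed. *Pdgfra* took between 0.462% and 1.42% of the summed FPKM of the 10 genes in the ESC libraries, and 6.95% in *Suz12GT*, 8.73% in *Suz12delta* and 12.9% in *Eednull* day 5 cells. *Cav1* took between 10.4% and 22.9% in ESCs and between 1.16% and 2.50% at day 5. The ranges of both genes' shares at day 5 and in ESCs thus overlapped only for *Pdgfra*, through E14 day 5 cells (0.842%). *Acta2* took 69.4% in E14 day 5 cells, where the other members were low.

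The first comparison follows wild-type cells from ESCs to day 5, in which motor neuron markers were higher at day 5. All 10 genes were at least 2-fold lower in E14 day 5 cells than in E14 ESCs, where 25.8% of 21563 genes were at least 2-fold lower and 18.3% higher. Against CJ7 ESCs, which are of another batch and strain background, 9 of the 10 were, with *Acta2* at -0.98. Of the 23351 genes compared with CJ7, 30.2% were at least 2-fold lower. The median log2 ratio of the 10 against E14 ESCs was -2.78, against -0.20 over all genes compared. The cross-linking enzyme gene *Lox* was lowest relative to ESCs, with a log2 ratio of -6.65, followed by *Cav1* with -5.43, *Thbs1* with -4.61 and *Postn* with -4.27. *Tagln* was at -3.48 and *Pdgfrb* at -2.08, while *Pdgfra* (-1.70), *Acta2* (-1.65), *Dcn* (-1.32) and *Lum* (-1.21) were nearest to 0. *Pdgfra*, *Dcn* and *Lum* were under 1 FPKM in both libraries, so their ratios are set in part by the 0.1 added. With 1 FPKM added 7 of the 10 were at least 2-fold lower, where 13.0% of all genes were. The 12 feeder fibroblast markers other than these 10 genes, among them the collagen genes *Col1a1* and *Col1a2*, were lower in the same comparison, with 11 of 12 at least 2-fold lower and a median of -4.40. Their sum without *Vim*, which neural progenitors also express, was 262 FPKM in E14 ESCs and 17.0 FPKM at day 5. *S100a4*, the marker with the highest value in any library after *Vim*, went from 27.9 FPKM to 0 as listed. The part of feeder RNA in the difference of the 10 genes was not tested.

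In *Suz12delta* cells 5 of the 10 genes were at least 2-fold lower at day 5 than in ESCs and 0 at least 2-fold higher, where 12.6% of 22681 genes were lower and 26.9% higher by this measure. The median log2 ratio was -1.27, against 0.43 over all genes. The 5 genes were *Cav1* (-6.49), *Thbs1* (-3.65), *Lox* (-3.18), *Pdgfrb* (-1.90) and *Acta2* (-1.68). *Postn* (-0.86), *Tagln* (-0.73), *Dcn* (-0.52), *Lum* (-0.33) and *Pdgfra* (0.42) stayed within 2-fold. With ratios taken relative to the median of all genes, or with libraries scaled to the same 75th percentile, 7 of the 10 were at least 2-fold lower. Of all genes 18.6% were then lower and 15.0% higher with the first setting, and 17.2% lower and 17.7% higher with the second. The feeder fibroblast markers without *Vim* summed to 1181 FPKM in *Suz12delta* ESCs, the highest of the 8 libraries, and to 177 FPKM at day 5, and 9 of the 12 were at least 2-fold lower. *S100a4* went from 281 to 1.75 FPKM, a log2 ratio of -7.25, beyond that of any of the 10 genes.

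In *Eednull* cells the list was split. At day 5 *Pdgfra* (log2 ratio 1.76), *Dcn* (2.06) and *Lum* (2.43) were at least 2-fold higher than in ESCs, 3 of 10 genes where 18.4% of 24638 genes passed. *Lox* (-4.54), *Cav1* (-4.19), *Thbs1* (-2.80), *Tagln* (-1.62) and *Acta2* (-1.24) were at least 2-fold lower, 5 of 10 where 24.8% of all genes were. *Postn* (-0.73) and *Pdgfrb* (-0.19) stayed within 2-fold, and the median of the 10 was -0.99, against -0.08 over all genes. With 1 FPKM added, *Lum* was at 0.93 and 2 of the 10 were at least 2-fold higher, where 8.92% of all genes were. The feeder fibroblast markers without *Vim* summed to 477 FPKM in ESCs and 110 FPKM at day 5, with 8 of 12 at least 2-fold lower and 0 higher. Taken gene by gene, the change over differentiation was less negative in *Eednull* than in E14 cells for all 10 genes, by a median of 1.998 on the log2 scale and a range of 0.40 to 3.64. In *Suz12delta* cells the same difference from E14 had a median of 0.92 and ran from -1.06 for *Cav1* to 3.46 for *Lox*. Both differences share the E14 libraries.

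**Figure D2:**
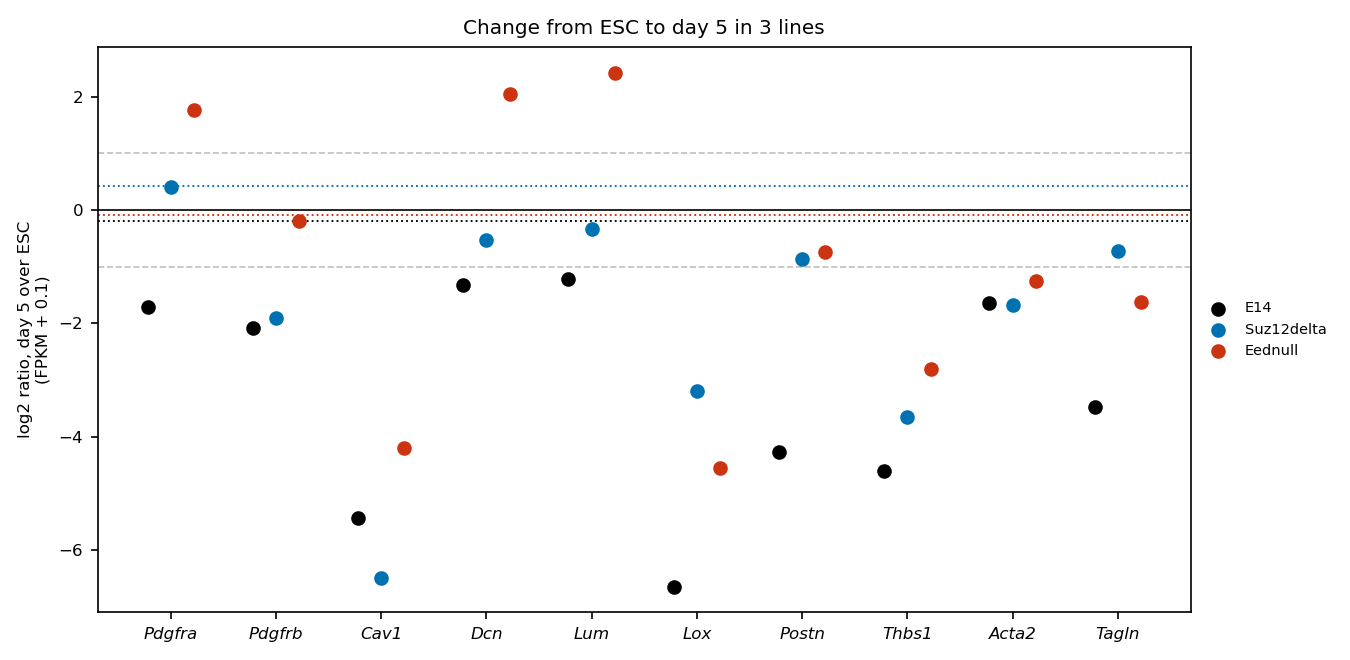
Log2 ratio of day 5 over ESC values (FPKM plus 0.1) for each of the 10 genes in E14, Suz12delta and Eednull cells, with dashed lines at 2-fold and a dotted line per line of cells at the median of all genes compared. All 10 E14 points lie below -1, while Pdgfra, Dcn and Lum lie above 1 in Eednull cells.

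At day 5 the mesenchyme genes differed between wild-type and mutant cells. All 10 were at least 2-fold higher in *Suz12delta* than in E14 day 5 cells, where 26.6% of 22069 genes were and 9.52% were at least 2-fold lower, with a median log2 ratio of 3.80 against 0.26 over all genes. All 10 were likewise at least 2-fold higher in *Eednull* than in E14 day 5 cells, where 21.6% of 21442 genes were and 11.3% were at least 2-fold lower, with a median of 3.30 against 0.08. The same E14 library serves both comparisons, so they are not independent. *Postn* (6.14 in *Suz12delta* and 5.34 in *Eednull*) and *Pdgfra* (5.65 and 5.56) stood highest, and *Lox* was at 5.21 in *Suz12delta* and 3.80 in *Eednull* cells. *Dcn* was at 4.31 and 4.14, *Tagln* at 4.03 and 2.94, and *Lum* at 3.57 and 3.67. *Thbs1* (3.15 and 2.66), *Pdgfrb* (2.27 and 2.74), *Cav1* (2.13 and 2.32) and *Acta2* (1.98 and 1.32) had the smallest ratios. With a pseudocount of 1 FPKM all 10 remained past 2-fold in both lines, where 11.7% and 9.11% of all genes were at least 2-fold higher. The medians were then 2.36 and 1.81.

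*Suz12GT* cells, which share the strain background of E14, took an intermediate place. At day 5, 7 of the 10 genes were at least 2-fold higher than in E14 and 0 at least 2-fold lower, where 16.8% of 20840 genes were higher and 4.40% lower. At least 4-fold higher were 4 of the 10, where 5.08% of all genes were. The E14 library is again the one used above. The median was 1.57 against 0.13 over all genes. *Dcn* (3.91), *Pdgfra* (3.31), *Lox* (2.66), *Postn* (2.30), *Thbs1* (1.81), *Lum* (1.34) and *Cav1* (1.26) passed 2-fold, and *Tagln* (0.94), *Acta2* (0.30) and *Pdgfrb* (-0.38) did not. For 9 of the 10 genes, all but *Pdgfrb*, the *Suz12GT* value lay between the E14 value and both other mutant values. It covered 22.9% of the log2 distance from E14 to the lower of the other mutants for *Acta2* and 32.0% for *Tagln*, against 59.5% for *Pdgfra* and 70.0% for *Lox*. Only *Pdgfra*, *Dcn*, *Lox* and *Thbs1* among the genes past 2-fold reached 1 FPKM in *Suz12GT* cells. With 1 FPKM added 3 of the 10 genes were at least 2-fold higher, where 4.95% of all genes were.

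**Figure D3:**
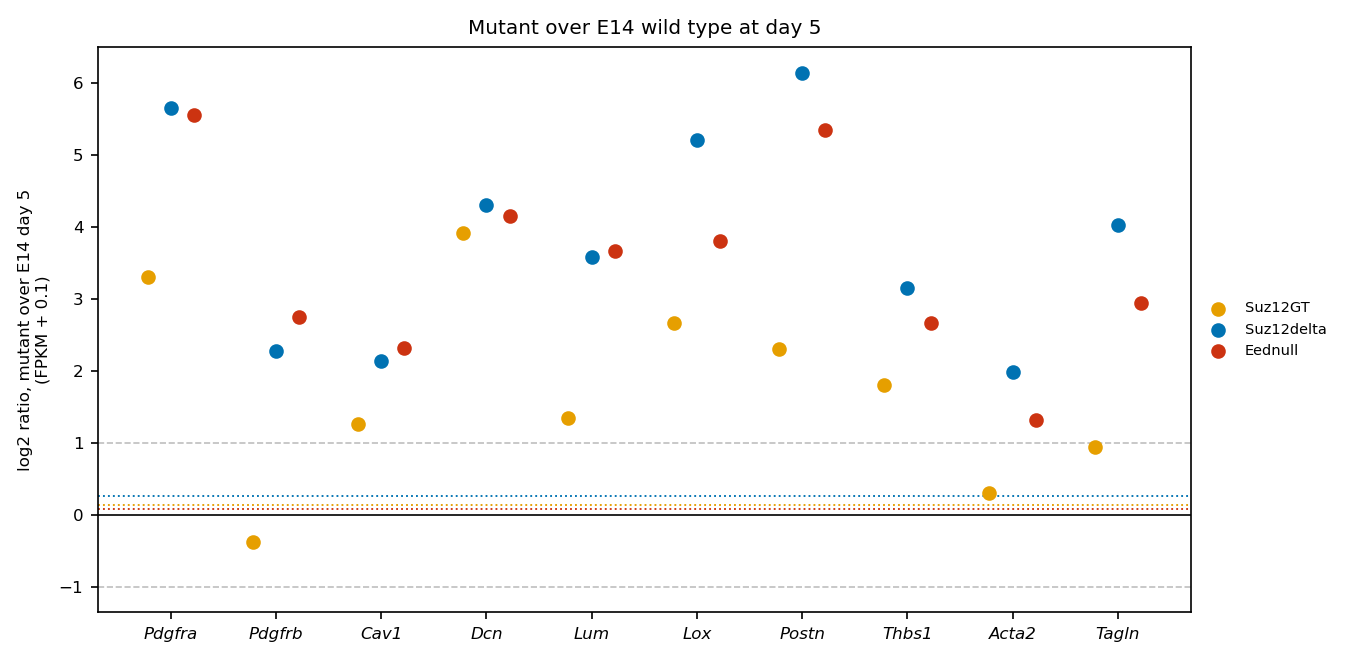
Log2 ratio of each mutant over E14 wild type at day 5 (FPKM plus 0.1) for the 10 genes, with dashed lines at 2-fold and a dotted line per mutant at the median of all genes compared. All Suz12delta and Eednull points lie above 1, and 7 of 10 Suz12GT points do.

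Markers of other cell types also differed at day 5. The 12 extraembryonic endoderm markers, a cell type known to express *Pdgfra*, summed to 29.4 FPKM in E14, 180 in *Suz12GT*, 145 in *Suz12delta* and 149 FPKM in *Eednull* day 5 cells. In the mutants 12, 11 and 11 of these 12 markers were at least 2-fold higher than in E14, where 16.8%, 26.6% and 21.6% of all genes were. Their leading genes were *Lamb1*, a laminin subunit of basement membrane, at 1.52 FPKM in E14 against 55.4, 50.5 and 54.1 FPKM, and *Col4a1*, a collagen of basement membrane, at 7.67 against 48.1, 34.5 and 26.3 FPKM. *Gata4*, a defining transcription factor of this lineage and also of heart, was listed at 0 in E14 and was at 11.6, 10.3 and 12.1 FPKM. The list was thus about as high in *Suz12GT* as in the other mutants, unlike the 10 genes, whose sums were 16.1 FPKM in E14, 32.1 in *Suz12GT*, 135 in *Suz12delta* and 85.3 FPKM in *Eednull* cells. The 8 endothelium markers, a cell type known to express *Cav1*, summed to 10.6, 13.2, 49.3 and 32.6 FPKM in the same order. In the mutants 5, 8 and 7 of these 8 were at least 2-fold higher than in E14, where 16.8%, 26.6% and 21.6% of all genes were. Those under 0.1 FPKM in E14 were compared only through a higher mutant value. Among them *Cdh5*, a defining marker, was at 0.0317, 1.18, 2.11 and 1.02 FPKM. *Egfl7* was at 10.04, 8.53, 31.4 and 18.9 FPKM, and *Pecam1* was listed at 0 in E14 and was at 0.436, 0.793 and 0.441 FPKM. The skeletal and cardiac muscle markers summed to 0.130 FPKM in E14, 2.31 in *Suz12GT*, 6.33 in *Suz12delta* and 3.09 FPKM in *Eednull* day 5 cells. In E14 each was at 0.0376 FPKM or less, under the 0.1 minimum. Only markers higher in a mutant were thus compared, and none of them could be lower. Those compared (2, 5 and 5 genes) were all at least 2-fold higher in the mutants than in E14, where 16.8%, 26.6% and 21.6% of all genes were. The heart genes *Actc1* and *Nkx2-5* led them, *Actc1* listed at 0 in E14 and at 0.936, 3.85 and 0.888 FPKM in the mutants, and *Nkx2-5* at 0.0177 against 1.19, 1.42 and 1.60 FPKM. The skeletal muscle regulators *Myod1* and *Myog* were at 0.0922 FPKM or less in these 4 libraries. The 12 feeder fibroblast markers without *Vim* summed to 17.0, 39.2, 177 and 110 FPKM, with 2 of the 12 listed at 0 in E14, 1 in *Suz12GT* and 0 in the other day 5 libraries. The part of each cell type in the day 5 values of the 10 genes was not tested.

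Among ESCs, before any differentiation, the 10 genes stood further above E14 in *Suz12delta* than in *Eednull* cells. All 10 were at least 2-fold higher in *Suz12delta* than in E14 ESCs, where 18.0% of 21980 genes were and 22.8% were at least 2-fold lower, with a median log2 ratio of 2.44 against -0.28 over all genes. The ratios ran from 1.27 for *Tagln* to 3.54 for *Pdgfra*, with *Cav1* at 3.20. Against CJ7 ESCs, a comparison that crosses library batches, 9 of 10 were at least 2-fold higher and *Lum* was at 0.78. Of 23628 genes 21.1% were at least 2-fold higher against CJ7 and 24.0% at least 2-fold lower. In *Eednull* ESCs 5 of the 10 genes were at least 2-fold higher than in E14, where 22.4% of 24280 genes were and 11.9% were at least 2-fold lower, with a median of 0.998 against 0.04. At least 4-fold higher was 1 gene, *Pdgfra*, where 6.80% of all genes were. The E14 ESC library serves both mutants and CJ7. *Pdgfra* (2.09), *Postn* (1.80), *Lox* (1.70), *Cav1* (1.08) and *Tagln* (1.08) passed, while *Acta2* (0.92), *Thbs1* (0.86), *Pdgfrb* (0.85), *Dcn* (0.77) and *Lum* (0.03) did not. With libraries scaled to the same 75th percentile 8 of the 10 passed, where 24.6% of all genes did.

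The comparison of *Eednull* with E14 ESCs crosses library batches, and CJ7 gives the comparison within a batch. Against CJ7, 6 genes were at least 2-fold higher in *Eednull* ESCs, where 20.5% of 25180 genes were, and 2 were at least 2-fold lower, where 10.7% were. The higher ones were *Lox* (2.22), *Thbs1* (1.85), *Cav1* (1.77), *Acta2* (1.59), *Tagln* (1.58) and *Pdgfra* (1.15), and the lower ones were *Lum* (-1.88) and *Dcn* (-1.02). *Dcn* and *Lum* thus differed in direction from *Acta2* and *Tagln*, while of 6 other small leucine-rich proteoglycan genes compared 3 were at least 2-fold higher and 0 lower. Between the wild-type lines, 3 genes were at least 2-fold higher in CJ7 than in E14 ESCs, where 15.7% of 23141 genes were, namely *Lum* (1.90), *Dcn* (1.78) and *Postn* (1.23), and 0 were at least 2-fold lower, where 14.7% were. At least 4-fold higher were 0 of the 10, where 5.06% of all genes were. The median of the 10 was -0.17, against -0.12 over all genes. The CJ7 and E14 ESC libraries thus differed by up to 1.90 for a single gene of the list but little in its middle. This comparison crosses library batches and strain backgrounds, which cannot be told apart from a difference between the lines.

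**Figure D4:**
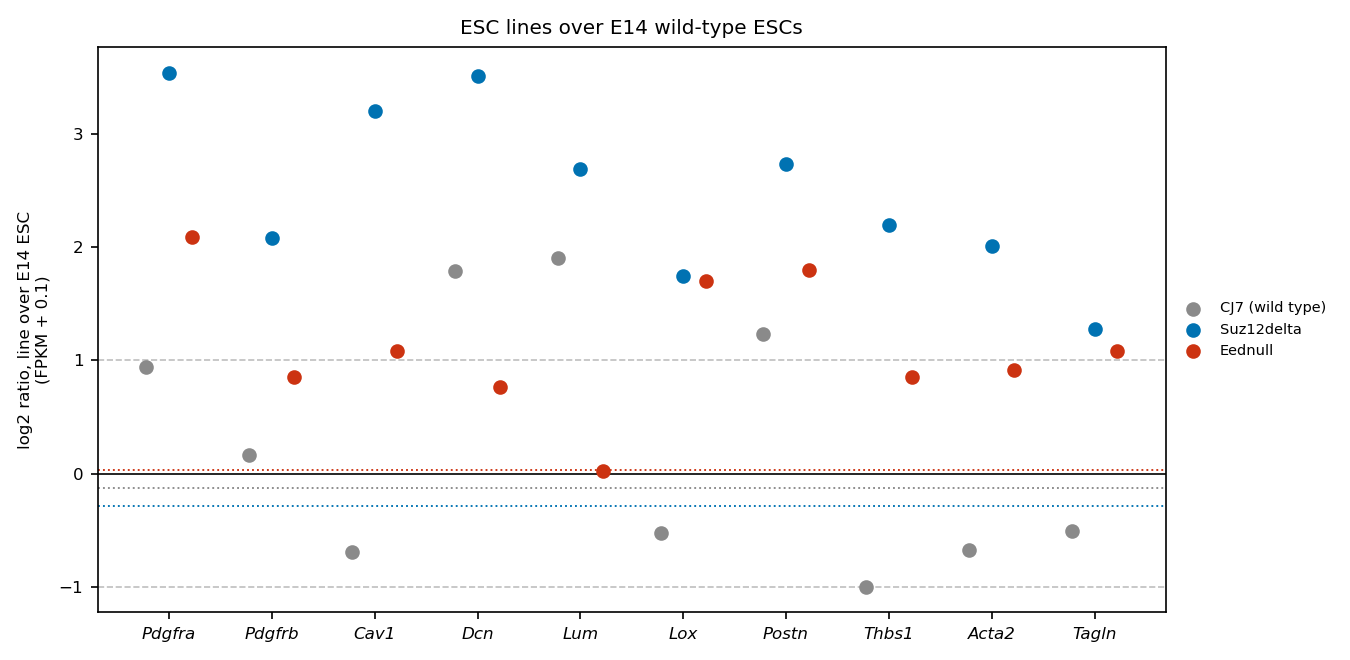
Log2 ratio of CJ7, Suz12delta and Eednull ESCs over E14 ESCs (FPKM plus 0.1) for the 10 genes, with dashed lines at 2-fold and a dotted line per line of cells at the median of all genes compared. All Suz12delta points lie above 1, 5 of 10 Eednull points do, and the CJ7 points lie on both sides of 0.

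The feeder markers without *Vim* summed to 262 FPKM in E14, 222 in CJ7, 1181 in *Suz12delta* and 477 FPKM in *Eednull* ESCs, against sums of 144, 96.5, 653 and 309 FPKM for the 10 genes. Of the 12 markers, 10 were at least 2-fold higher in *Suz12delta* than in E14 ESCs, where 18.0% of all genes were. In *Eednull* ESCs 3 of the 12 were at least 2-fold higher than in E14, a share near the 22.4% of all genes. Against CJ7, the comparison within a batch, 6 of the 12 were, where 20.5% of all genes were. None of the 12 was listed at 0 in any ESC library. *S100a4* was at 27.9 FPKM in E14, 16.3 in CJ7, 281 in *Suz12delta* and 45.9 FPKM in *Eednull* ESCs. The 8 pluripotent cell markers were lowest in *Suz12delta* ESCs, where they summed to 491 FPKM, against 1139 in E14, 937 in CJ7 and 909 FPKM in *Eednull* ESCs. The 12 extraembryonic endoderm markers summed to 48.0 FPKM in E14, 40.8 in CJ7, 144 in *Suz12delta* and 205 FPKM in *Eednull* ESCs. All 12 were at least 2-fold higher in *Suz12delta* than in E14 ESCs, where 18.0% of all genes were. In *Eednull* ESCs 11 were against E14 and 11 against CJ7, where 22.4% and 20.5% of all genes were. The part of feeder or endoderm RNA in the ESC values of the 10 genes was not tested.

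Genes that work with the 10 were described as lists, whose counts are to be read beside the shares of all genes. At least 2-fold higher than in E14 day 5 cells were 26.6% of genes in *Suz12delta*, 21.6% in *Eednull* and 16.8% in *Suz12GT*. At least 2-fold lower at day 5 than in ESCs were 25.8% in E14, 12.6% in *Suz12delta* and 24.8% in *Eednull* cells. All 4 PDGF ligand genes were at least 2-fold lower in E14 day 5 cells than in ESCs, and all 4 were at least 2-fold higher in *Suz12delta* and in *Eednull* than in E14 day 5 cells. *Pdgfa*, a ligand of the *Pdgfra* product, was at 25.0, 22.2, 31.4 and 14.6 FPKM in E14, CJ7, *Suz12delta* and *Eednull* ESCs and at 2.83, 5.96, 11.2 and 14.8 FPKM in E14, *Suz12GT*, *Suz12delta* and *Eednull* day 5 cells. *Pdgfc* was at 6.17, 7.96, 11.5 and 7.47 FPKM in the same ESCs and at 1.59, 2.72, 24.5 and 18.0 FPKM at day 5, with its highest values at day 5 as for *Pdgfra*. *Pdgfb* was between 0.963 and 2.48 FPKM in ESCs and at 0.0693, 0.180, 1.63 and 1.06 FPKM at day 5, and *Pdgfd* was between 0.665 and 4.88 FPKM in ESCs and at 0.0986, 0.411, 1.99 and 2.37 FPKM at day 5. Ligand and receptor genes were thus low together in E14 day 5 cells.

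Of the 14 smooth muscle contractile genes, 12 were at least 2-fold higher in *Suz12delta* and 12 in *Eednull* than in E14 day 5 cells, with medians of 2.69 and 2.18, while in *Suz12GT* 2 of the 13 compared were higher, a share near the 16.8% of all genes, and 1 was lower, with a median of 0.41. *Tpm1*, a tropomyosin, was at 39.7 FPKM in E14, 52.7 in *Suz12GT*, 190 in *Suz12delta* and 161 FPKM in *Eednull* day 5 cells. *Myl9*, a myosin regulatory light chain, was at 2.95, 7.45, 83.1 and 46.0 FPKM in the same order. *Myocd*, the coactivator of smooth muscle genes, was at 0.368 FPKM or less in every library. The median of the list from ESC to day 5 was -1.81 in E14, -0.47 in *Suz12delta* and -0.60 in *Eednull* cells.

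The matrix lists were lower at day 5 than in ESCs. The median log2 ratio from ESC to day 5 of the small leucine-rich proteoglycans other than *Dcn* and *Lum* was -2.65 in *Suz12delta* and -1.92 in *Eednull* cells over 6 genes, with 0 at least 2-fold higher. *Bgn*, which encodes biglycan, went from 47.1 to 0.184 FPKM in E14, from 292 to 14.4 FPKM in *Suz12delta* and from 97.1 to 4.59 FPKM in *Eednull* cells. *Ogn*, which encodes osteoglycin, went from 2.37 to 0.0374 FPKM, from 11.9 to 0.857 FPKM and from 3.97 to 0.421 FPKM in these lines. *Bgn* thus differed from *Dcn* and *Lum* in *Eednull* cells, being lower at day 5. Of the 4 other lysyl oxidase family genes, 3 were at least 2-fold lower at day 5 than in ESCs in each of E14, *Suz12delta* and *Eednull* cells, and the fourth was *Loxl2* each time, which was at 5.35 and 9.75 FPKM in E14, 29.7 and 22.7 FPKM in *Suz12delta*, and 27.5 and 14.1 FPKM in *Eednull* cells. *Loxl1* was at 6.38 and 0.372 FPKM, 24.1 and 6.83 FPKM, and 8.95 and 4.26 FPKM in these pairs, *Loxl3* at 5.59 and 1.28 FPKM, 32.0 and 5.52 FPKM, and 11.2 and 3.46 FPKM, and *Loxl4* at 0.555 and 0.109 FPKM, 6.34 and 0.435 FPKM, and 2.17 and 0.237 FPKM.

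Of the caveolae genes 6 of 6 were at least 2-fold lower at day 5 than in ESCs in both *Suz12delta* and *Eednull* cells, where 12.6% and 24.8% of all genes were. The medians of the caveolae genes were -2.30 and -1.57. *Cavin1*, listed as *Ptrf*, which shapes caveolae with caveolin 1, was at 10.6 FPKM in E14, 8.07 in CJ7, 41.1 in *Suz12delta* and 14.8 FPKM in *Eednull* ESCs and at 0.258, 1.15, 9.43 and 6.16 FPKM in E14, *Suz12GT*, *Suz12delta* and *Eednull* day 5 cells. *Ehd2*, an ATPase at the neck of caveolae, was at 3.80, 4.83, 28.3 and 10.7 FPKM in these ESCs and at 5.69, 6.46, 4.99 and 2.78 FPKM at day 5, and was at a log2 ratio of -0.19 in *Suz12delta* and -1.01 in *Eednull* against E14 day 5 cells, where the 4 other caveolae genes compared were at least 2-fold higher. *Cav3*, the muscle caveolin gene, was listed at 0 in all 4 day 5 libraries and not compared. Of the 10 thrombospondin and other matricellular genes, 9 were at least 2-fold higher in *Suz12delta* and 9 in *Eednull* than in E14 day 5 cells, and 7 of 9 in *Suz12GT*. *Sparc*, a collagen-binding protein also abundant in parietal endoderm, was at 18.8 FPKM in E14, 181 in *Suz12GT*, 173 in *Suz12delta* and 144 FPKM in *Eednull* day 5 cells, and *Spp1*, which encodes osteopontin, at 2.15, 25.1, 78.3 and 30.8 FPKM. *Sparc*, like the endoderm markers, was as high in *Suz12GT* as in the other mutants.

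Of the TGF-beta ligand and receptor genes, 5 of 6 were at least 2-fold higher in *Suz12delta* and 5 in *Eednull* than in E14 day 5 cells, and 4 in *Suz12GT*. *Tgfbr1*, a signalling receptor gene, was not higher in any of the mutants, and *Tgfb3* was at a log2 ratio of 0.98 in *Suz12GT*. *Tgfbr1* was at 9.51 FPKM in E14, 10.5 in CJ7, 7.98 in *Suz12delta* and 12.8 FPKM in *Eednull* ESCs and at 53.5, 51.1, 32.2 and 35.6 FPKM in E14, *Suz12GT*, *Suz12delta* and *Eednull* day 5 cells. *Tgfb3* was at 2.07, 1.61, 14.5 and 5.58 FPKM in these ESCs and at 0.907, 1.89, 4.57 and 3.81 FPKM at day 5. Of the mesenchymal transcription factor genes, 10 of 10 were at least 2-fold higher in *Suz12delta* and in *Eednull* than in E14 day 5 cells, with medians of 4.14 and 4.21, and 8 of 8 compared in *Suz12GT*, with a median of 2.21. *Prrx1*, a factor of limb and craniofacial mesenchyme, was at 4.69, 4.44, 55.5 and 8.50 FPKM in ESCs, was listed at 0 in E14 day 5 cells, and was at 0.487, 3.69 and 4.10 FPKM in *Suz12GT*, *Suz12delta* and *Eednull* day 5 cells. *Prrx2* was at 4.17, 3.88, 30.2 and 9.07 FPKM in ESCs and at 0.957, 2.06, 7.10 and 6.53 FPKM at day 5. *Tcf21* and *Osr1*, which mark mesoderm of the heart covering and kidney and were picked out after their values were seen, had their highest values at day 5. *Tcf21* was at 0.0535 FPKM or less in the 4 ESC libraries and at 0.0666, 0.0866, 9.96 and 8.39 FPKM in E14, *Suz12GT*, *Suz12delta* and *Eednull* day 5 cells, and *Osr1* was at 0.123, 0.489, 3.01 and 0.802 FPKM in ESCs and at 0.127, 0.410, 15.2 and 11.8 FPKM at day 5.

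**Figure D5:**
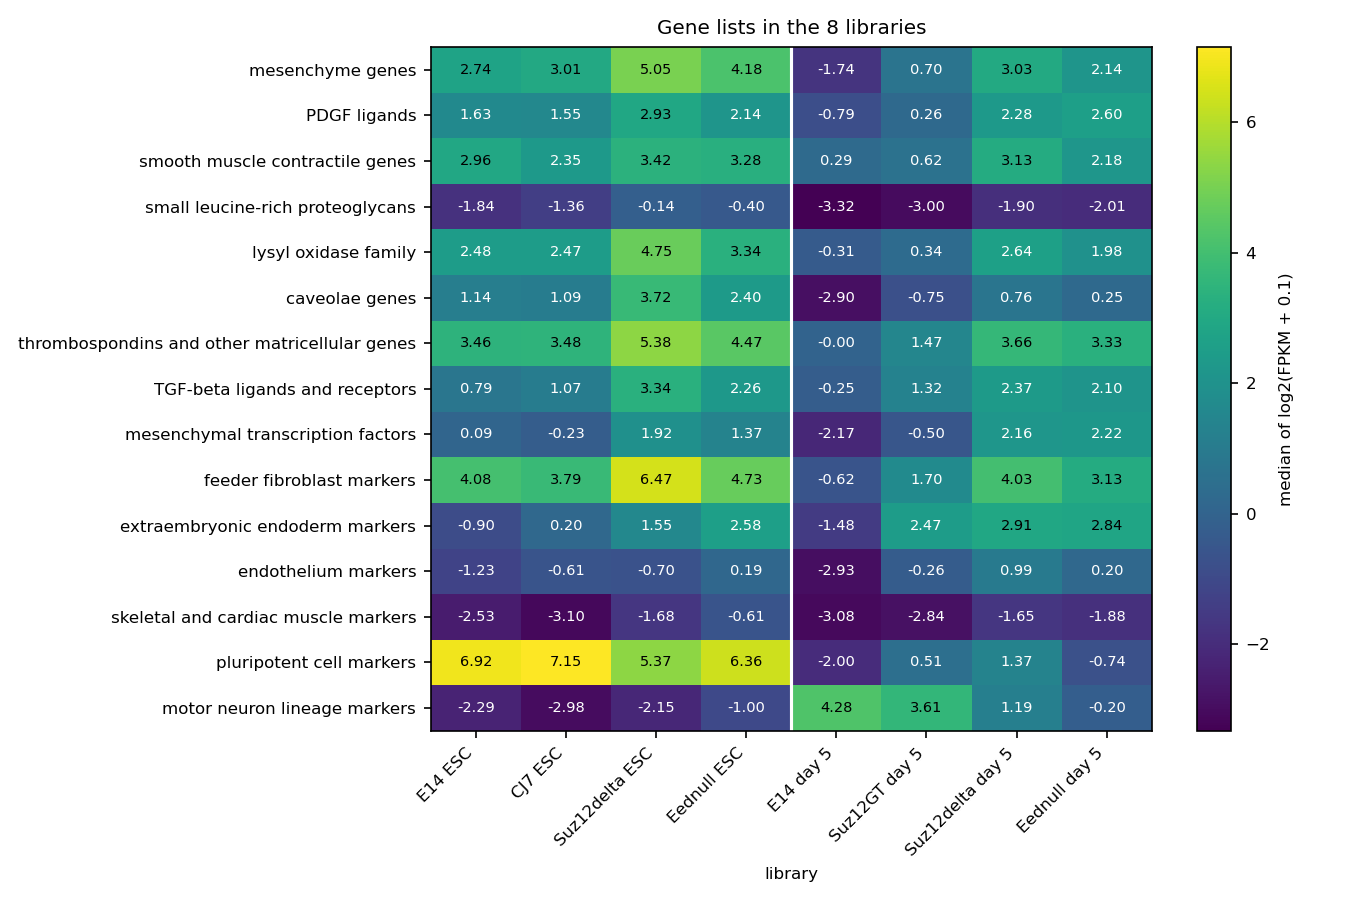
Median over the genes of each list of log2(FPKM plus 0.1), one row per list and one column per library, with the value printed in each cell and a white line between ESC and day 5 libraries. The mesenchyme genes stood at 5.05 in Suz12delta ESCs and -1.74 in E14 day 5 cells, and the motor neuron lineage markers at 4.28 in E14 day 5 cells.

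The gene closest in pattern to the mean of the 10, by the root mean square difference of centred log2 values over the 8 libraries, was *Prkcdbp*, the caveolae gene also called *Cavin3*, with 0.232, followed by *Col5a2* (0.256), *Ctsc* (0.269), *Loxl1* (0.284) and *Rhoj* (0.291). The median difference over the 18528 genes searched was 1.75. Of the 10 genes themselves *Tagln* was nearest to their mean (0.458) and *Cav1* farthest (1.60), followed by *Lox* (1.37), *Dcn* (1.35) and *Pdgfra* (1.29). The nearest gene to *Pdgfra* was *Igf2*, a fetal growth factor gene (0.402), which was at 10.3 FPKM in E14, 17.8 in CJ7, 166 in *Suz12delta* and 43.9 FPKM in *Eednull* ESCs and at 7.11, 43.0, 246 and 177 FPKM in E14, *Suz12GT*, *Suz12delta* and *Eednull* day 5 cells. The nearest to *Cav1* was *Col6a3* (0.525), to *Postn* *Col3a1* (0.398), to *Thbs1* *Lrrc32* (0.211), to *Tagln* *Tnfrsf12a* (0.232), to *Acta2* *Fstl3* (0.300), to *Lox* *Igfbp7* (0.440), to *Dcn* *Usp18* (0.383), to *Lum* *Serpinb9* (0.490) and to *Pdgfrb* *Gm13966* (0.310). These distances describe 8 libraries that share lines and batches.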

How the data were processed

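RNA-seq was performed on 8 libraries, 1 per condition. The authors aligned reads with TopHat 1.3.2 and Bowtie 0.12.7 to mm9 (NCBI build 37), guided by an Ensembl-based annotation, and deposited FPKM values per gene from Cufflinks 1.2.1 and Cuffdiff, with corrections for sequence bias and for reads mapping to several places. Tool versions are from the submitters' processing notes. Columns were assigned to conditions by name. From these values log2 ratios were computed after 0.1 was added, for genes reaching 0.1 FPKM in either library, and a 2-fold ratio was counted. No test was made, since each condition had 1 library and the lines differ in genotype. The code returned the ratios put into a copy of the E14 ESC values, without noise and for well-expressed genes only. This checks the arithmetic and not how certain the ratios of low genes are. Reads per library are unknown: in a search for values worth 1 read, no more than 2.28% of low genes shared the commonest ratio between a library and E14 ESCs. An exact 0 was taken as listed at 0, since up to 5 genes per library were at 0 although every other library had them at 10 FPKM or above. Gene coordinates are from GENCODE vM1, which held 36104 of the 36808 identifiers, and upstream sequences from RefSeq (GRCm38.p6), matched to NCBI build 37.

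The members and gene lists were chosen with earlier results of these data known. Genes named were the 10 members, the 2 genes of each list with the highest FPKM in any library (all genes of lists of 4), the 5 genes nearest in pattern to the member mean and the nearest to each member, among genes that reached 1 FPKM somewhere. Of genes with several entries, the one with the highest mean was used. *Tcf21*, *Osr1*, *Myocd*, *Gata4*, *Cdh5*, *Cav3*, *Tubb3*, *Acta1*, *Myod1*, *Myog*, *Pax6*, *Col1a1* and *Col1a2* were added after their values were seen. The alternatives added 1 or 0.01 in place of 0.1, raised the minimum to 1 FPKM or dropped it, scaled libraries to a common 75th percentile over 17842 genes detected in all of them, or used centring on the median of all genes, CJ7 as the wild-type ESC (for E14 differentiation chosen after seeing the data) and a 4-fold limit. A median or single ratio was taken as moved when it shifted by more than 0.90 on the log2 scale. This limit is the SD over genes of the ratio between the wild-type ESC libraries divided by the square root of 2. Counts were judged by their ratio to the main count instead. These wild-type libraries differ in batch and strain background as well as in line. The software was Python 3.11.15 with NumPy 2.4.6, pandas 2.3.3 and Matplotlib 3.10.9.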

Additional observations from a re-analysis of the deposited data

Results flagged for a closer look

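With 1 library per condition no group could be searched for an outlying sample. Genes named in the report that were at least 2-fold lower at day 5 than in ESCs in E14 cells and at least 2-fold higher in a mutant line are given here, and the difference between lines was not tested. *Pdgfra* had a log2 change of 1.76 in *Eednull* cells against -1.70 in E14 cells, *Dcn* of 2.06 against -1.32 and *Lum* of 2.43 against -1.21. Among the PDGF ligand genes, *Pdgfc* had a change of 1.09 in *Suz12delta* and 1.25 in *Eednull* cells against -1.89 in E14, and *Pdgfd* of 1.63 in *Eednull* cells against -2.66. The cardiac actin gene *Actc1* had a change of 2.25 in *Suz12delta* cells against -4.19 in E14, from 0.730 to 3.85 FPKM in *Suz12delta* cells and from 1.72 FPKM to 0 as listed in E14. For *Eednull* cells these changes cross library batches. With 1 FPKM added, the E14 changes of *Pdgfra* (-0.55), *Dcn* (-0.33) and *Lum* (-0.18) were under 2-fold.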

How the results depend on the processing

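No ratio of the 10 genes that was past 2-fold changed direction under any of the alternatives run, but measured against CJ7 rather than E14, *Dcn* in *Eednull* ESCs went from 0.77 to -1.02 and *Lum* from 0.03 to -1.88. No paired analysis was made, since each condition had 1 library and the day 0 and day 5 pairs come from lines of different genotype, so they are not replicates of 1 condition. No replicate could be left out. With 1 FPKM added the median log2 ratio became -1.69 for E14 day 5 against E14 ESCs, 2.36 for *Suz12delta* and 1.81 for *Eednull* against E14 at day 5. The number of genes at least 2-fold higher became 3 for *Suz12GT* against E14 at day 5, where 4.95% of all genes were. It became 1 for CJ7 against E14 ESCs, where 2.10% were. Adding 0.01 FPKM gave a median of 2.70 for *Suz12GT* against E14 at day 5. A minimum of 1 FPKM left 7 of the 10 genes in E14 day 5 against ESCs, with a median of -4.27. It left 6 in *Suz12GT* against E14 at day 5, of which 4 were at least 2-fold higher, where 11.2% of all genes were. Scaling to the 75th percentile raised the count in *Eednull* against E14 ESCs from 5 to 8. With a 4-fold limit the counts were 4 for *Suz12GT* against E14 at day 5, 1 for *Eednull* and 0 for CJ7 against E14 ESCs. For single genes, 31 of 90 ratios moved with 1 FPKM added, 11 of 90 with 0.01 FPKM and 15 of 30 with CJ7 as the wild-type ESC, and 0 with the other alternatives. Values under 1 FPKM, such as *Lum* in most libraries, are the least certain, since reads per library are unknown.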
